A study of Mus musculus with 4 samples.

Results

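Mpo, Elane, Prtn3 and Ctsg encode proteins of the azurophil granules of neutrophils, and their transcripts were followed here in single hematopoietic stem cells (HSCs) of mouse bone marrow. They are 4 of the 31053 genes in the count tables. They were picked by name, because an earlier reading of the same counts had shown Prtn3 in most cells and the other members in few. An LT-HSC and an ST-HSC gate were sorted from each of 2 male mice aged 14 weeks, and all 4 libraries come from the strain Tie2-bG-Micm x RosaYFP, so every group carries the same Tie2-bG-Micm and RosaYFP alleles. Both gates took lineage-negative cells with Kit and Sca1 and without CD48. Cells with CD150 were the long-term HSCs (LT-HSC), and cells without it were the short-term HSCs (ST-HSC). The labels name no treatment.

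Libraries were made with 10x Chromium 3' v3 chemistry, in which a unique molecular identifier (UMI) marks each captured RNA molecule. Levels are given as CPM, a gene's UMIs scaled to a total of 1000000 UMIs in the same cells. Barcodes needed 1000 genes, 2000 UMIs and no more than 10% mitochondrial UMIs to be counted as cells. The libraries are called LT1 and ST1 (the LT-HSC and ST-HSC gates of mouse 1) and LT2 and ST2 (those of mouse 2), and lists of 4 values follow the order LT1, LT2, ST1, ST2. They held 22, 1217, 2633 and 1707 cells. LT1 stood apart, with 39553 barcodes at a median of 285 UMIs, so the LT-HSC group rests almost wholly on mouse 2. Median depth per kept cell was 4494.5, 10367, 9881 and 7504 UMIs. Among kept cells, LT2 and ST2 shared 1 barcode, and ST1 and ST2 shared 1. Slamf1, the gene for CD150, averaged 28.3 ± 9.09 CPM over the LT-HSC and 1.12 ± 0.408 CPM over the ST-HSC libraries (SD, n = 2 each), and Kit 276 ± 39.4 and 237 ± 18.6 CPM.

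Azurophil granules are the first granules made during neutrophil development, at the promyelocyte stage. Myeloperoxidase (Mpo) makes hypochlorous acid from hydrogen peroxide and chloride. Neutrophil elastase (Elane), proteinase 3 (Prtn3) and cathepsin G (Ctsg) are serine proteases of one family, stored in active form after the dipeptidyl peptidase Ctsc has removed a short propeptide. S100a8 and S100a9 encode the calprotectin subunits, which fill the cytosol of maturing neutrophils and were used to split the cells. Cells with 5 or more UMIs of both genes together numbered 0, 2, 8 and 9 in the 4 libraries, and cells with fewer than 5 numbered 22, 1215, 2625 and 1698. The cells nearest to the split carried 5, 5 and 6 such UMIs above it in LT2, ST1 and ST2, and 3, 4 and 4 below it.

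Prtn3 and Elane are neighbours on chromosome 10. In GRCm38 (mm10) and the GENCODE M21 annotation, Prtn3 (ENSMUSG00000057729) spans chr10:79874476-79883174 and Elane (ENSMUSG00000020125) spans chr10:79886247-79888215, both on the plus strand with 3072 bases between them. Mpo (ENSMUSG00000009350) lies at chr11:87793581-87804413 on the plus strand and Ctsg (ENSMUSG00000040314) at chr14:56099881-56102574 on the minus strand. The main coding transcripts have 5 exons each for Prtn3, Elane and Ctsg and 14 for Mpo. Because adjacent genes differed so widely in level, the bases just upstream of each coding transcript are shown. They come from RefSeq promoter windows of GRCm38.p6 (250 bases before to 50 after the start), where all 4 genes had an entry, and run 5′ to 3′ on the gene's strand. Capitals mark AGGAAGT, the core letters bound by PU.1 and other ETS factors.

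Prtn3 (chr10:79879417-79879613, plus): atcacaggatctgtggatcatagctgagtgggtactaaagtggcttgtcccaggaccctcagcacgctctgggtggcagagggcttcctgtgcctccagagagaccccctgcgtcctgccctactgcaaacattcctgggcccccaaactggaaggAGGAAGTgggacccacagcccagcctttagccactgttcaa
Elane (chr10:79886062-79886246, plus): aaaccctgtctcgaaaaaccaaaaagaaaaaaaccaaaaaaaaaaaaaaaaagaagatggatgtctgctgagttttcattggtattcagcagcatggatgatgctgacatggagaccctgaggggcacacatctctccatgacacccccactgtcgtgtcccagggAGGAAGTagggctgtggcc
Mpo (chr11:87793534-87793580, plus): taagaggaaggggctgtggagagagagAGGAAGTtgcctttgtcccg
Ctsg (chr14:56102575-56102824, minus): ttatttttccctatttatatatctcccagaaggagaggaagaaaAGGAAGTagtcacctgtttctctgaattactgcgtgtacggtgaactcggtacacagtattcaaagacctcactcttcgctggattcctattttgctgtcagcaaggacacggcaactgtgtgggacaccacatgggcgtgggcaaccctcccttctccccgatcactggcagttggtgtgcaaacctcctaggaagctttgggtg

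AGGAAGT, searched on both strands, stood once in each of the 4 windows and in 9.35% of the 32851 promoter windows of the table. The longer GAGGAAGT, which contains it, stood in the windows of Mpo, Elane and Prtn3 and in 3.20% of all windows. These letters were chosen after the 4 windows had been read. GCAAT, letters of a C/EBP site, stood in the windows of Mpo and Elane and not in those of Prtn3 and Ctsg, against 26.4% of all windows. TATAAG stood in those of Prtn3 and Elane (7.43% of all), TGTGGT, the RUNX letters, in that of Ctsg alone (16.8% of all), and AACNG, the Myb letters, in all 4 (80.3% of all). A match is a description of the letters, and a missing match says only that they are not in this window.

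Prtn3 was found in most cells with fewer than 5 S100a8 and S100a9 UMIs in every library, while Mpo, Elane and Ctsg were found in few. Since the members were chosen with this contrast known, these levels are a description. A Prtn3 UMI was present in 19 of 22 cells of LT1 (86.4%), 1119 of 1215 of LT2 (92.1%), 2471 of 2625 of ST1 (94.1%) and 1520 of 1698 of ST2 (89.5%). The summed Prtn3 UMIs were 57, 4738, 12249 and 6500, which is 494, 358, 442 and 481 CPM, with 95% exact counting intervals of 374 to 640, 348 to 368, 434 to 449 and 469 to 493. These intervals cover counting error only. In LT1, barcodes with under 500 UMIs held Prtn3 at 406 CPM, inside the interval of its 22 cells, so for that library the share of 86.4% has no lower background beside it. By the number of cells with a UMI, Prtn3 ranked 153, 317, 287 and 307 among 9679, 17027, 17906 and 16899 detected genes.

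**Figure D1:**
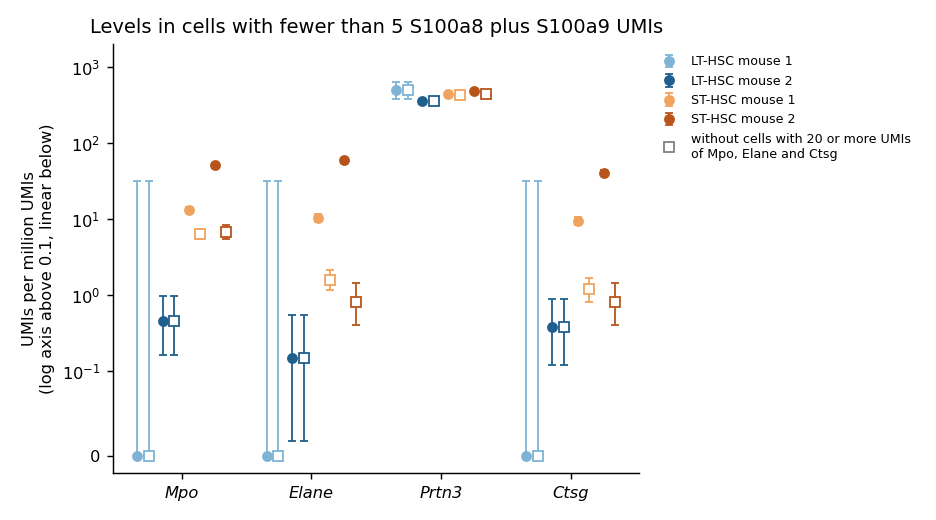
Level of each gene in CPM (log axis above 0.1, linear below), summed over the cells with fewer than 5 S100a8 plus S100a9 UMIs of each library, with 95% exact Poisson intervals. Filled circles hold all these cells and open squares leave out cells with 20 or more UMIs of Mpo, Elane and Ctsg together; Prtn3 lies between 358 and 494 in all 4 libraries, and the other genes lie below 60.

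Most Prtn3-carrying cells held several molecules. The median cell had 2, 3, 4 and 3 Prtn3 UMIs, and 63.6%, 78.4%, 82.8% and 74.1% of cells had 2 or more. The highest cell held 10, 24, 404 and 300. When every cell was thinned at random to 2000 UMIs, so that depth no longer differed, a Prtn3 UMI remained in 63.6%, 47.1%, 55.7% and 53.5% of cells. Without the few cells rich in the other members, the variance of thinned Prtn3 UMIs over cells was 1.29, 1.17 and 1.33 times its mean in the last 3 libraries, and 0.548 times in the 22 cells of LT1. Counting error alone gives 1. Cells without a Prtn3 UMI at that depth made up 52.9%, 44.4% and 46.5%, against 47.4%, 41.5% and 41.3% for a Poisson count of the same mean. Cells of these libraries thus differed in Prtn3 a little more than counts of 1 shared mean would.

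**Figure D2:**
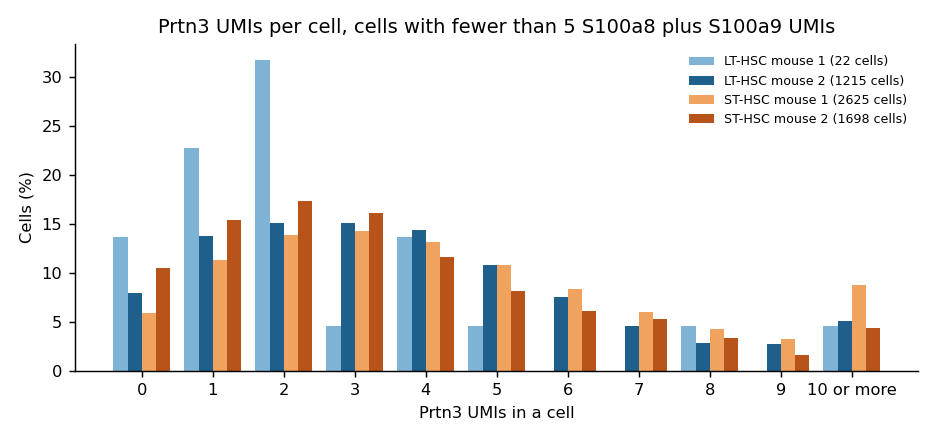
Percentage of cells (y axis) by the number of Prtn3 UMIs in the cell (x axis) in each library, for cells with fewer than 5 S100a8 plus S100a9 UMIs. Cells at 0 make up 13.6%, 7.90%, 5.87% and 10.5% of the libraries in legend order, and most cells hold several UMIs.

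Mpo was the next most widespread member. Its UMIs lay in 0 of 22, 5 of 1215 (0.412%), 149 of 2625 (5.68%) and 72 of 1698 cells (4.24%), with 0, 6, 366 and 688 UMIs. The count of 0 in 22 cells allows a share of up to 13.6%. Elane lay in 0, 2, 43 and 13 cells with 0, 2, 289 and 798 UMIs, and Ctsg in 0, 3, 27 and 13 cells with 0, 5, 263 and 549 UMIs. At the depth of LT1, 3 counts correspond to 26.0 CPM, so these 3 genes were not detectable there below that level. In both ST-HSC libraries the UMIs were concentrated in few cells. The highest cell held 244 of 289 Elane UMIs in ST1 (84.4%) and 682 of 798 in ST2 (85.5%), and 43.7% and 59.6% of Mpo and 73.0% and 59.4% of Ctsg UMIs. For Prtn3 the same cells held 3.30% and 4.62%. UMIs of 3' tags do not scale with transcript length, but capture can differ between genes.

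Cells that held 20 or more UMIs of Mpo, Elane and Ctsg together, a bound chosen after the counts were seen, are called azurophil-rich here. There were 0 in both LT-HSC libraries, 4 in ST1 and 3 in ST2. Of the 4 in ST1, 2 also carried 4367 and 1755 S100a8 plus S100a9 UMIs, with 449 and 178 UMIs of Mpo, 1001 and 562 of Elane, 546 and 296 of Prtn3 and 187 and 140 of Ctsg. The other pair in ST1 had 0 S100a8 and S100a9 UMIs. One of them held 160 UMIs of Mpo, 244 of Elane, 404 of Prtn3 and 192 of Ctsg among 60461 UMIs, and the other 28, 1, 45 and 38. In ST2 the cell with most held 410 UMIs of Mpo, 682 of Elane, 300 of Prtn3 and 326 of Ctsg beside 2 S100a8 plus S100a9 UMIs. A further cell held 161, 105, 248 and 133. These 6 cells thus carried the 4 genes together, with 2 to 152 UMIs of Ms4a3, a gene of granulocyte-monocyte progenitors, and 0 to 6 UMIs of Kit. They held 19327 to 60461 UMIs each, against medians of 9881 in ST1 and 7504 in ST2, and whether any was a doublet was not tested.

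The last azurophil-rich cell of ST2 differed from the others. It held 610 UMIs of Prss34 and 351 of Mcpt8, protease genes of basophils, with 26 UMIs of Mpo and 79 of Ctsg but 0 of Elane and 0 of Prtn3 among 13273 UMIs. Ctsg and Mcpt8 are neighbours on chromosome 14, with 14607 bases between them.

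Cells with high S100a8 and S100a9 were mostly without azurophil transcripts. In LT2, ST1 and ST2, 1, 2 and 8 cells carried 1000 or more S100a8 plus S100a9 UMIs and were not azurophil-rich. Together they held 0 UMIs of Mpo, Elane and Ctsg and 1 of Prtn3. Most carried Camp and Ngp, genes of the later-made specific granules, with up to 728 and 572 UMIs. Cells with 5 to 32 S100a8 plus S100a9 UMIs numbered 1, 4 and 1. They carried 3 Prtn3 UMIs in the LT-HSC cell, 2 to 4 in the cells of ST1 and 0 in that of ST2, and 0 UMIs of the other members. Each of them held 1 to 9 UMIs of Ly6a, which encodes Sca1, while the cells with 1000 or more that were not azurophil-rich held 0 of Ly6a and 0 of Kit.

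**Figure D3:**
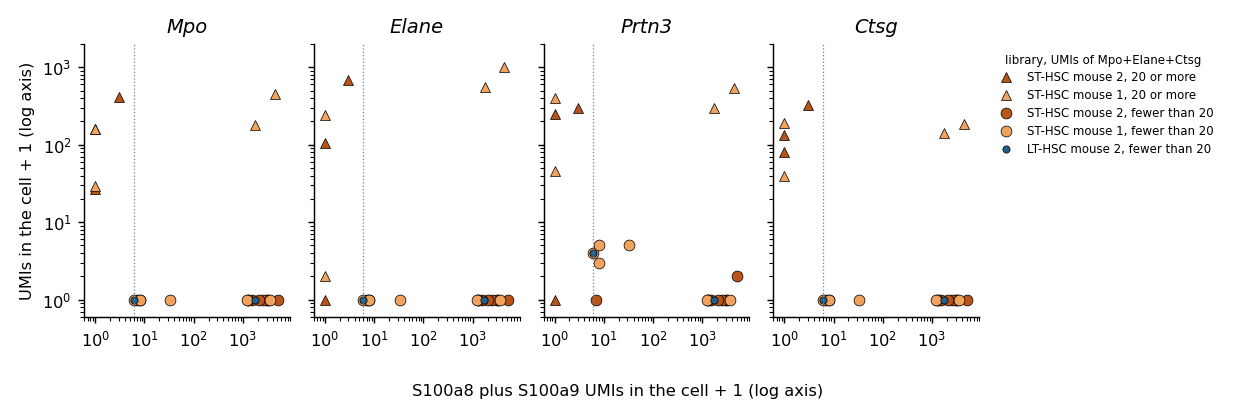
UMIs of each gene per cell plus 1 (y axis, log) against S100a8 plus S100a9 UMIs plus 1 (x axis, log), 1 point per cell, for all cells with 5 or more S100a8 plus S100a9 UMIs (right of the dotted line) or 20 or more UMIs of Mpo, Elane and Ctsg (triangles). The triangles with most UMIs are high in all 4 genes, and the cells at the lower right, with over 1000 S100a8 plus S100a9 UMIs, hold 0 or 1 UMI of each gene.

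Cells with many UMIs of some markers of other types carried little Prtn3, while most cells with a few erythroid UMIs had a Prtn3 UMI, as other cells did. The first kind, called cells rich in markers of other types, was chosen after the counts were seen, by 1000 or more S100a8 plus S100a9 UMIs, 50 or more of Lyz2, 100 or more of Hbb-bs, 20 or more of the basophil genes Mcpt8 plus Prss34, or 5 or more of CD3 and T cell receptor genes, without azurophil-rich cells. In ST2, 3 of 18 such cells had a Prtn3 UMI (16.7%, 20.8 CPM, exact interval 4.30 to 60.9), against 90.0% and 447 CPM in the other cells. In ST1 it was 2 of 7 cells (28.6%, 93.8 CPM, 30.4 to 219) against 94.2% and 427 CPM, and in LT2 it was 1 of 2 cells (33.8 CPM, 0.856 to 188) against 92.1% and 359 CPM. Median depths were 7132.5 against 7504 UMIs, 6533 against 9881 and 14788 against 10361.5. In all 3 libraries the interval of these cells lay below that of the other cells. The intervals leave out the spread between cells, and LT2 held only 2 such cells. Under a lower bound of 5 UMIs the result was different for erythroid genes. Of cells with 5 or more UMIs of the alpha and beta globin genes, 92 of 96 in LT2 (95.8%), 168 of 179 in ST1 (93.9%) and 127 of 143 in ST2 (88.8%) had a Prtn3 UMI, at median depths of 10685, 9790 and 7390 UMIs. Of cells with 5 or more UMIs of the macrophage genes C1qa, C1qb and C1qc, 2 of 2, 2 of 2 and 3 of 3 had one. At 5 or more UMIs of Mcpt8, Prss34 and Cpa3, 0 of 1 cells had one in ST1 and 0 of 1 in ST2. The T cell genes, with the bound of 5 UMIs already used above, gave 1 of 1 in ST1 and 0 of 2 in ST2. A low share of cells with Prtn3 was thus not seen for the cells with a few erythroid UMIs. The other sets, macrophage genes among them, held too few cells to tell. For Mpo and Elane the cells rich in markers of other types could not set a background. In ST1 and ST2 they held 0 UMIs of either gene, which allows shares of up to 42.9% and 16.7%, above the 5.61% and 4.09% of other cells with an Mpo UMI and the 1.57% and 0.653% with an Elane UMI.

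**Figure D4:**
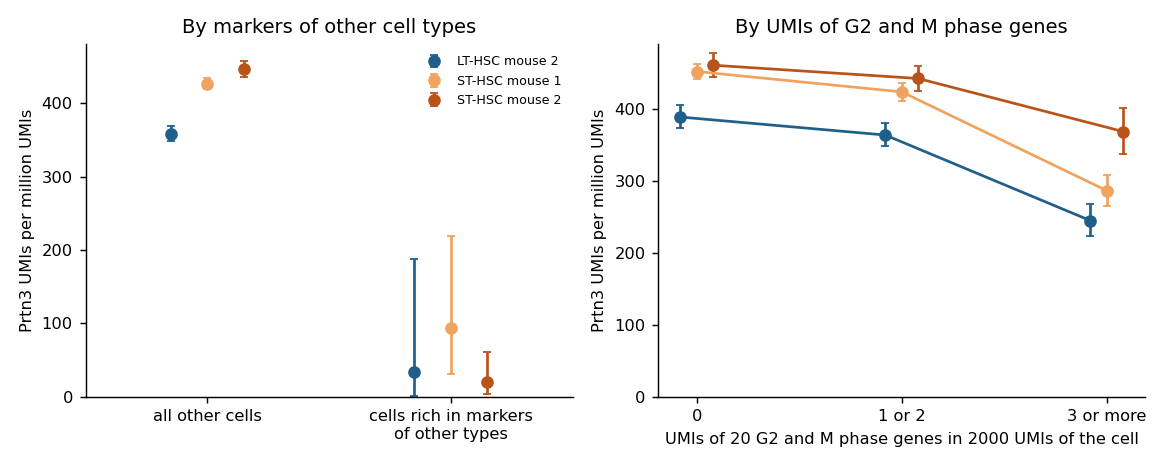
Prtn3 level in CPM (y axes, from 0) with 95% exact Poisson intervals in LT2 and both ST-HSC libraries. Left, cells rich in markers of other types lie at 20.8 to 93.8 and all other cells at 359 to 447; right, Prtn3 by the number of UMIs of G2 and M phase genes in 2000 UMIs of the cell is 389, 452 and 461 at 0 and 245, 287 and 369 at 3 or more (LT2, ST1, ST2).

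Within stem cells, the level of Prtn3 was set beside the presence of the other members. Without azurophil-rich cells, Prtn3 lay at 412 CPM (exact interval 383 to 443) in the 147 cells of ST1 with an Mpo UMI and at 428 CPM (420 to 436) in the 2476 cells without. In ST2 it lay at 470 CPM (420 to 524) in 69 cells with and 442 CPM (431 to 454) in 1626 without. For Elane the values were 426 against 427 CPM in ST1 (41 and 2582 cells) and 390 against 444 CPM in ST2 (11 and 1684 cells). The intervals overlapped in each of these ST-HSC pairs. In LT2, Prtn3 lay at 626 CPM (449 to 849) in the 5 cells with an Mpo UMI against 357 CPM (347 to 367). It lay at 265 CPM (121 to 503) in the 2 cells with an Elane UMI against 358 CPM (348 to 369). All these intervals cover the counting error of summed UMIs and not the spread between cells, so they are no test. Cells with a Ctsg UMI had lower Prtn3, at 292 CPM (234 to 360) against 428 CPM in ST1 (25 cells), 224 CPM (137 to 346) against 445 CPM in ST2 (10 cells) and 126 CPM (46.2 to 274) against 359 CPM in LT2 (3 cells). Cells rich in markers of other types held 3, 9 and 2 Ctsg UMIs in LT2, ST1 and ST2, and their part in that difference was not tested.

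Prtn3 was compared in the same way by genes that part stem and progenitor states. In LT2, Prtn3 lay at 361 CPM in the 220 cells with a Slamf1 UMI and 357 CPM in the 995 without. In ST1, it lay at 429 CPM in 1719 cells with a UMI of Flt3, a receptor of multipotent progenitors, and at 421 CPM in 904 without. In ST2 it lay at 458 CPM (444 to 473) with and 417 CPM (399 to 436) without Flt3, with intervals of counting error only. Cells with Cebpa, the transcription factor gene of granulocyte commitment, lay at 451 CPM (429 to 473) against 423 CPM (415 to 431) in ST1 and 461 CPM (424 to 500) against 442 CPM (430 to 454) in ST2. In LT2 the direction was the other one, at 337 CPM (251 to 443) in 12 cells with Cebpa against 358 CPM (348 to 369).

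The comparison of the gates asked whether the 4 genes differ between LT-HSC and ST-HSC among cells with fewer than 5 S100a8 and S100a9 UMIs. Mpo, Elane and Ctsg were called higher in ST-HSC, and for Prtn3 no difference passed the test. Summed counts of the 4 libraries were fitted over all genes with edgeR's quasi-likelihood test, which called 844 of 12629 genes (6.68%) at a Benjamini-Hochberg adjusted p under 0.05, 463 of them higher in LT-HSC (3.67%) and 381 in ST-HSC (3.02%). Of the 4 members, 3 were among the latter. These 3 lay at 0 CPM in LT1 and 0.151 to 0.453 CPM in LT2, so they passed the filter on low counts through ST-HSC alone. A call in the other direction was thus hardly open to them, and the direction is no support of its own. In bulk sums of this kind, fewer cells with a transcript and less RNA per cell cannot be told apart.

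By library, Prtn3 stood at 494 and 358 CPM for the LT-HSC gate and at 442 and 481 CPM for the ST-HSC gate, so the LT-HSC values lay on either side of the ST-HSC values. In mouse 1 LT-HSC was higher by 52.8 CPM, on 57 UMIs of 22 cells, and in mouse 2 LT-HSC was lower by 123 CPM. The means were 426 ± 96.4 and 461 ± 27.9 CPM (SD, n = 2 each). The log2 fold change, LT-HSC minus ST-HSC, was -0.24 (SE 0.20, 95% interval -0.63 to 0.14, edgeR adjusted p = 0.806). Without azurophil-rich cells it was -0.16 (interval -0.54 to 0.22).

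Mpo stood at 0 (LT1), 0.453 (LT2), 13.2 (ST1) and 50.9 CPM (ST2). LT2 lay below both ST-HSC libraries, while the count of 0 in LT1 allows up to 32.0 CPM, above the value of ST1. The log2 fold change was -6.10 (SE 0.41, edgeR adjusted p = 5.09e-46). Over each gate, 6 UMIs in LT-HSC stood against 1054 in ST-HSC, a ratio of 56.8 per UMI sequenced (95% counting interval 26.0 to 155). Without the 5 azurophil-rich cells among these cells, ST-HSC held 269 Mpo UMIs, at 6.44 and 6.78 CPM, the ratio was 14.6 (6.61 to 40.1) and the log2 fold change -3.85 (SE 0.54, edgeR adjusted p = 1.36e-10). Against LT2, Mpo was thus higher in ST-HSC outside these cells too, in 147 of 2623 cells of ST1 and 69 of 1695 of ST2 against 5 of 1215. LT1, with 0 of 22 cells, was too shallow to show such levels.

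Elane stood at 0 (LT1), 0.151 (LT2), 10.4 (ST1) and 59.1 CPM (ST2). With 2 UMIs against 1087, the ratio was 176 (48.6 to 1454). The counting intervals of these ratios do not cover the spread between cells, and 1 cell held 84.4% of the Elane UMIs in ST1 and 85.5% in ST2. The log2 fold change of Elane was -7.74 (SE 0.48, edgeR adjusted p = 7.13e-54). It moved to -3.01 (SE 0.86, edgeR adjusted p = 0.00900) without azurophil-rich cells, where 55 UMIs remained in ST-HSC and the ratio was 8.94 (2.36 to 75.6). Elane then stood at 1.59 CPM in ST1 and 0.820 CPM in ST2, below the 5.05 CPM of LT1 barcodes outside the cell filter. The 22 kept cells of LT1 could not show such levels. Ctsg stood at 0 (LT1), 0.378 (LT2), 9.48 (ST1) and 40.6 CPM (ST2), with a log2 fold change of -5.99 (SE 0.44, edgeR adjusted p = 3.65e-39). Without azurophil-rich cells 44 UMIs remained in ST-HSC against 5 in LT-HSC, and the log2 fold change of -1.45 (SE 0.72) did not pass the test (edgeR adjusted p = 0.327). Most of the gate difference of Elane and Ctsg thus lay in 5 cells. In that fit 836 of 12614 genes were called (6.63%), 470 higher in LT-HSC (3.73%) and 366 in ST-HSC (2.90%).

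These calls rest on LT2. Without that library, only the 22 cells of mouse 1 stand for LT-HSC, and the edgeR adjusted p was 0.820 for Mpo, 0.849 for Elane and 0.850 for Ctsg, with 5 genes called in all. DESeq2 called 52 genes, Mpo, Elane and Ctsg among them (adjusted p = 2.93e-05, 0.0318 and 0.000554).

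Other genes of azurophil granule content and assembly, a list of 16, showed no common direction between the gates. Without azurophil-rich cells 13 were tested, 2 were higher in ST-HSC, 1 in LT-HSC and 10 did not pass, with a median log2 fold change of -0.10 against -0.02 over all genes. The members higher in ST-HSC were Prss57, a serine protease of the same granules, at -1.55 (SE 0.31), and Serpinb1a, an intracellular inhibitor of these proteases, at -1.84 (SE 0.21). Serpinb6a, an inhibitor of cathepsin G, was higher in LT-HSC at 1.19 (SE 0.20). Ctsc, the activating peptidase (0.23, SE 0.20), Srgn, the proteoglycan that packs granule proteins (-0.13, SE 0.19), and Lyz2, lysozyme (-0.24, SE 0.19), did not pass, with edgeR adjusted p of 0.831, 0.965 and 0.780. With azurophil-rich cells included, Cst7, Slpi and Ms4a3 were called higher in ST-HSC as well, which made 5 of 14. Lyz2, like Prtn3, was widespread, with a UMI in 45.5%, 91.4%, 89.7% and 84.1% of cells.

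Among 18 genes of myeloid transcription factors, 17 were tested without azurophil-rich cells. Cebpa was higher in ST-HSC by a log2 fold change of -3.70 (SE 0.41) and Gfi1, a repressor needed for neutrophil development, by -1.50 (SE 0.23). Gata2 (1.03, SE 0.18), Gfi1b and Zfpm1 were higher in LT-HSC, and 12 did not pass, with a median of -0.15. Spi1, which encodes PU.1, had an edgeR adjusted p of 0.0538 (-0.57, SE 0.20), and of 0.0467 with azurophil-rich cells. Of 18 receptor and progenitor genes of granulocytes and monocytes, 14 were tested, 9 were higher in ST-HSC, 0 in LT-HSC and 5 did not pass, with a median of -1.04. Among the 9 were Cd34 (-1.75, SE 0.21) and Plac8 (-2.06, SE 0.21). All 16 tested genes of a list for multipotent progenitors were higher in ST-HSC, and 13 of 22 HSC-enriched genes were higher in LT-HSC. Over all genes of this fit the shares were 2.90% and 3.73%. The lists were chosen with earlier results of these data known, so these counts are no independent support. Slamf1, among the 13, encodes CD150, by which the gates were sorted. For Prtn3 no difference passed the test between gates in which many genes of these lists differed.

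Markers of other cell types moved with the gates in part. With azurophil-rich cells, 3 of 4 tested mast cell and basophil markers were higher in ST-HSC, and without them 1 was tested and did not pass. Of 8 erythroid markers 7 were tested and 5 were called higher in ST-HSC in both fits. For 1 of the 5, Hba-a2, the mean of the libraries ran the other way, at 12.7 ± 16.8 CPM for LT-HSC against 7.49 ± 7.56 CPM for ST-HSC (SD, n = 2 each). Without azurophil-rich cells edgeR called 0 of 3 tested neutrophil markers and 0 of 4 tested macrophage markers, with 1744 genes of the whole fit at an unadjusted p under 0.05. The neutrophil markers tested were S100a8, S100a9 and Camp. S100a8 and S100a9 define the split and were held under 5 UMIs together in every cell of the fit. Their missing calls thus say nothing on neutrophil content. Without cells rich in markers of other types, Mpo was at -5.76, Elane at -8.49 and Ctsg at -6.71, and all 3 calls held. Azurophil-rich cells with none of those markers were kept in that fit.

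The genes beside Prtn3 on the chromosome did not share its level. Plppr3, on the opposite strand, overlaps Prtn3 by 159 bases at the far 5' exon of a noncoding Prtn3 transcript. Its levels were 17.3, 26.8, 57.5 and 63.8 CPM, and it was higher in ST-HSC (-1.20, SE 0.21, edgeR adjusted p = 1.35e-06). Of 1725 stretches of 31 bases in the annotated Prtn3 transcripts, 129 also stood in another gene's transcript, all of them Plppr3 on the opposite strand, and 0 of the 470 stretches in the last 500 bases of the coding transcript did. Elane, the next gene downstream, and Ctsg had 0 such stretches. Mpo had 416 of 3451, shared with many other genes on either strand, and 0 of the 470 in its last 500 bases. Cfd, 2637 bases beyond Elane, lay at 0, 0, 0.0721 and 0.296 CPM. Tspoap1 and Lpo beside Mpo lay at 0 to 0.666 and at 0 CPM, and Gzme beside Ctsg at 0 CPM in all 4 libraries.

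Within the stem cells, genes were compared between cells with and without a Prtn3 UMI after thinning every cell to 2000 UMIs, with the library as a block. In LT2, 572 cells carried Prtn3 and 643 did not, in ST1 1461 and 1164, and in ST2 909 and 789. LT1, with 14 and 8, was left out, and LT2 and ST2 come from the same mouse. Few genes differed. The edgeR fit called 31 of 9791 genes (0.317%), 9 higher with Prtn3 (0.0919%) and 22 lower (0.225%). Mpo, Elane and Ctsg were too sparse to enter it. A cell without a Prtn3 UMI at this depth is not a Prtn3-negative cell, since most carried one at full depth.

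Among the genes lower in cells with Prtn3, 3 belong to the S phase and the G2 and M phase lists, Rrm2, Mki67 and Ccnb2, and most listed genes did not pass. The chromatin protein gene Hmgb2 lay at 323, 419 and 408 CPM in cells with and 441, 523 and 497 CPM in cells without Prtn3 in LT2, ST1 and ST2, lower in every library (log2 fold change -0.33, SE 0.05, edgeR adjusted p = 1.66e-09). These levels are on the edgeR scale, with TMM-scaled totals of thinned counts. Mki67, the marker of cycling cells, lay at 8.02, 13.7 and 8.35 against 20.6, 25.2 and 17.3 CPM (SE of the log2 fold change 0.23, edgeR adjusted p = 0.00426). Rrm2, a subunit of ribonucleotide reductase, fell by 1.30 (SE 0.28), the mitotic cyclin gene Ccnb2 by 0.95 (SE 0.23), and Dut, the dUTP pyrophosphatase gene, by 0.31 (SE 0.07). Stmn1 and Tuba1b, of microtubules, and the histone genes H2afz and Hist1h2bc differed in the same direction, by -0.16, -0.27, -0.18 and -0.45, with the reservation that 3' tags of histone and tubulin genes can be shared within their families. Of 20 S phase genes, 19 were tested, 1 was lower, 0 were higher and 18 did not pass, with a median of -0.22. Of 20 G2 and M phase genes, 14 were tested, 2 were lower, 0 were higher and 12 did not pass, with a median of -0.56, against 0.00 over all genes. Among those that did not pass, Tyms was at -0.57, Pcna at -0.32, Hmmr at -1.27 and Tpx2 at -1.03. At 5000 UMIs a cell Hmgb2 (-0.55), Rrm2 (-1.40), Ccnb2 (-1.86), Stmn1 (-0.22), Tuba1b (-0.29) and Dut (-0.26) were lower with Prtn3 too. Without thinning, where cells without a Prtn3 UMI were shallower (medians 7790.5 against 10492, 8680.5 against 9962 and 6483 against 7649.5 UMIs), Stmn1 (0.31), Tuba1b (0.25), Dut (0.34), Pcna (0.40) and Tyms (0.52) turned to the other direction.

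The level of Prtn3 by UMIs of G2 and M phase genes was lower per UMI at higher counts, but not per cell in every library. Without azurophil-rich cells, cells with 3 or more such UMIs in 2000 lay at 245 CPM of Prtn3 in LT2 (116 cells, exact interval 223 to 268), against 389 CPM (373 to 405) in the 596 cells with 0. In ST1 it was 287 CPM (163 cells, 266 to 308) against 452 CPM (1487 cells, 441 to 463), and in ST2 369 CPM (140 cells, 338 to 402) against 461 CPM (857 cells, 445 to 478). The mean number of Prtn3 UMIs per cell was 3.97 against 3.82, 4.34 against 4.46 and 3.76 against 3.52. Median depth was 15578 against 9875.5, 13779 against 9505 and 8822.5 against 7351 UMIs. Cells with more G2 and M phase UMIs thus held more UMIs in all, with nearly the same number of Prtn3 UMIs.

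Further genes were lower in cells with Prtn3, some of them with most UMIs in few cells. Ccl5, a chemokine gene of T cells, lay at 0.891, 4.10 and 26.7 against 2.38, 32.0 and 59.0 CPM (-1.72, SE 0.21). The 5 highest cells held 84%, 63.6% and 82.9% of its UMIs before thinning in LT2, ST1 and ST2, so this fall rests on few cells. Tyrobp, an adaptor of myeloid and NK cell receptors (-0.89, SE 0.15), S100a4 (-0.66, SE 0.14), the interferon-induced Ifi27l2a (-0.72, SE 0.18) and Lyz2 (-0.33, SE 0.05) fell too. Lyz2 was higher with Prtn3 in LT2 (353 against 320 CPM) and lower in ST1 and ST2. Hbb-bs, a beta globin gene, fell by 1.99 (SE 0.18), but 1448 of its 1746 UMIs in ST2 lay in 1 cell with 0 Prtn3 UMIs. Without the cells rich in markers of other types, 19 genes were called, 8 of them higher and 11 lower. There Lyz2 (0.21), Hbb-bs (0.28), Tyrobp (-0.18), S100a4 (-0.27) and Ifi27l2a (-0.30) no longer passed, while Hmgb2 (-0.30), Mki67 (-0.93), Ccnb2 (-0.93), Rrm2 (-1.14) and Ccl5 (-1.41) did.

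Genes higher in cells with Prtn3 rose by little. The kinase gene Pim1, a target of cytokine signalling through Stat5, lay at 406, 325 and 458 against 309, 273 and 393 CPM (0.27, SE 0.05, edgeR adjusted p = 0.000113). Wfdc17 lay at 8.91, 182 and 256 against 7.93, 136 and 197 CPM (0.40, SE 0.08). Procr, which encodes the HSC surface protein EPCR, lay at 166 against 113 CPM in LT2 and 111 against 95.7 CPM in ST1 (0.33, SE 0.08, edgeR adjusted p = 0.0324). Each was higher in all 3 libraries. The immediate early gene Junb (0.39, SE 0.10) rose as well. The nuclear RNA Malat1 (0.09), the elongation factor gene Eef1a1 (0.05) and the mitochondrial mt-Atp6 (0.03) rose by under 0.1 on the log2 scale. Without thinning, Procr (-0.064), Junb (-0.089) and Malat1 (-0.048) turned to the other direction, and 1 of the 9 genes was called higher there too.

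**Figure D5:**
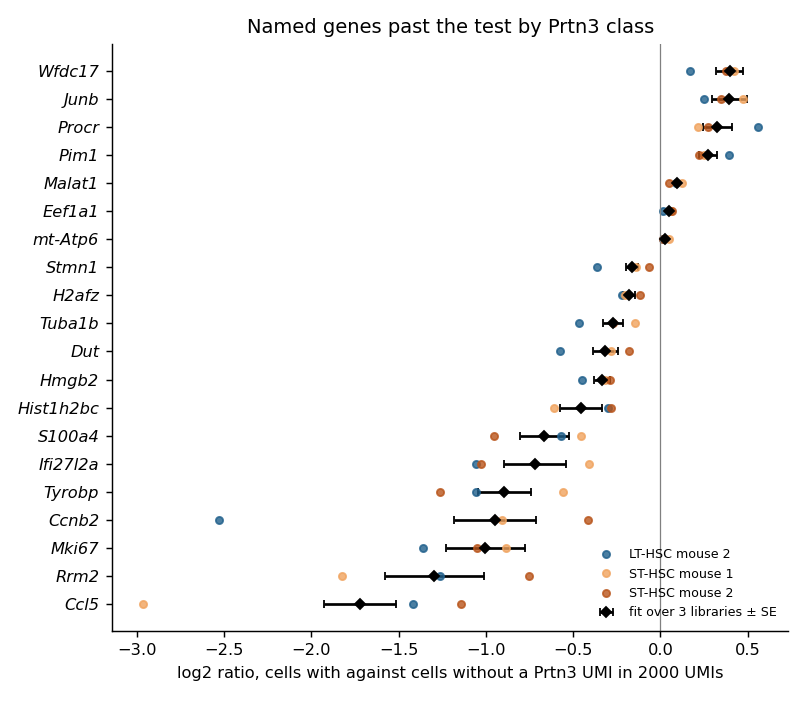
Log2 ratio (x axis) of named genes past the test between cells with and without a Prtn3 UMI in 2000 UMIs, in LT2 and both ST-HSC libraries (circles), with the edgeR estimate and its SE (diamonds). Of the genes shown, Wfdc17 and Junb lie highest, at 0.40 and 0.39, and Ccl5 and Rrm2 lowest, at -1.72 and -1.30.

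Few myeloid genes were called, as among all genes (31 of 9791, 0.317%), so lists of this size say little about them. On simulated counts this fit found 15% of genes given a log2 change of 0.5. Lyz2 and Tyrobp were called lower with Prtn3, as given above. Of the 16 azurophil granule genes, 11 were tested and Lyz2 alone was called. Gusb (-0.23, SE 0.11), Serpinb1a (0.08, SE 0.07) and Ap3b1 (-0.09, SE 0.11) did not pass, with edgeR adjusted p of 0.707, 0.905 and 0.934. Of 14 tested myeloid transcription factor genes 0 were called by edgeR, with a median of 0.02, among them Runx1 (0.12), Cebpb (-0.09), Egr1 (0.12) and Cebpd (0.26). At an unadjusted p under 0.05 the fit held 672 of all genes. Of 11 tested receptor and progenitor genes of granulocytes and monocytes 0 were called, with Cd34 at 0.09, Csf3r at 0.14, Igfbp4 at 0.11 and Nkg7 at 0.08. Of 18 tested HSC-enriched genes Procr alone was called, with Ifitm1 at 0.10, Meg3 at 0.27 and Txnip at 0.09.

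This comparison depends on its libraries. Without ST1 it called 16 genes, and without ST2 it called 5. DESeq2 called 1.

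Across single cells, no gene followed Prtn3 closely. Over 7895 genes compared in cells thinned to 2000 UMIs of the 3 larger libraries, Malat1 had the highest mean correlation with Prtn3 at 0.0903, then Pim1 at 0.0820, Otos at 0.0608, Eef1a1 at 0.0603, Lmo2 at 0.0602, Procr at 0.0542, Ifitm1 at 0.0526, Trafd1 at 0.0502, mt-Co1 at 0.0493 and Cox7a2l at 0.0488. The highest value in 1 library was 0.112. The points are cells of one library that share its depth, and correlations this weak in sparse counts are no finding.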

How the data were processed

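The authors deposited raw UMI counts per gene and barcode, made with Cell Ranger 3.1.0 and mm10, per the submitters' processing notes. The header of each matrix names software version 3.0.2. The sources used here do not state the cell calling or any removal of doublets, and no doublet caller was run. Gene positions are from GENCODE M21, where 30934 of 31053 identifiers were found (99.6%). The 4 genes, the lists and the tests were chosen with earlier results of these data known, so patterns already seen in them, such as the higher Mpo and Elane in ST-HSC, are not independent support.

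Counts were summed per library over cells, since cells are not replicates, and compared by the quasi-likelihood test of edgeR 4.0.16 with TMM, filterByExpr defaults and Benjamini-Hochberg adjustment over all genes (R 4.3.3). The gate fit had the gate as its only factor. The Prtn3 fit had the library as a block. DESeq2 1.42.0 was an alternative. Each SE is the size of a log2 fold change over the root of its F value. Levels of the members are plain CPM of the stated cells, over 115305, 13233324, 27739509 and 13511572 UMIs in LT1, LT2, ST1 and ST2. Shares and levels carry exact 95% intervals and a floor of 3 counts. On counts simulated from these libraries, the gate fit found 93% of 100 genes given a log2 change of 1, with 13 false calls among 12443 genes. The Prtn3 fit found 15% of 100 genes given 0.5 and 91% of those given 1, with 4 false calls among 9635 genes. Libraries with the same number come from the same mouse, which pairs them; over 9558 genes the deviations of the pairs correlated at 0.0992. Alternatives included a mouse block, another normalization, no filter on low counts, other bounds for S100a8 plus S100a9, no thinning, and leaving out each library.

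Genes were named by a rule: the 4 members and their neighbours; up to 10 called genes a direction of the Prtn3 fit, ranked by fold change, with at least 20 CPM on average and no library against the direction; from each list up to 4 genes ranked by p in that fit, with at least 5 CPM on average; and the 10 genes most like Prtn3 across cells. Genes of the lists given for the gates, Camp, Ngp, Prss34 and Mcpt8 were chosen after their values were seen. A gene that the rule names is not reported here.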

Additional observations from a re-analysis of the deposited data

Results flagged for a closer look

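Azurophil transcripts were also found in barcodes that did not pass the cell filter, which no comparison above uses, at more UMIs than the limit of 3 that a count of 0 allows. In ST1, 160 such barcodes held 262 UMIs of Mpo, 619 of Elane, 410 of Prtn3 and 443 of Ctsg. Single barcodes there held up to 119, 300, 177 and 193 UMIs of these genes, and Elane lay in 5 barcodes and Ctsg in 4. In ST2, 77 barcodes held 5, 14, 25 and 11 UMIs in the same gene order, and in LT2, 71 barcodes held 23 UMIs of Prtn3.

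In LT1, 39531 barcodes outside the filter held 5353 Prtn3 UMIs (398 CPM), within the interval of the 22 kept cells of LT1 (494 CPM, 374 to 640). They also held 68 Elane UMIs (5.05 CPM) in 66 barcodes and 8 Mpo UMIs (0.594 CPM). Of the Elane UMIs, 62 lay in barcodes under 500 UMIs, where S100a8 lay at 139 CPM. The kept cells of both LT-HSC libraries held 2 Elane UMIs in all.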

How the results depend on the processing

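The gates. Over the alternatives run, the log2 fold changes of Mpo, Elane, Ctsg and Prtn3 kept their direction, and the calls of Mpo and Elane held except without LT2. For Mpo, Elane and Ctsg the other direction was hardly open, since the kept LT-HSC cells held few UMIs of them. Their kept direction is thus no support of its own. Leaving out azurophil-rich cells also removes cells by the UMIs of Mpo, Elane and Ctsg themselves. The count of 844 genes was 52 with DESeq2 and ranged from 5 to 944 when each library was left out. Libraries of the same mouse were paired in a fit with the mouse as a replicate block, which called 825 genes. There Mpo was at -6.80, Elane at -8.54, Ctsg at -6.73 and Prtn3 at -0.25 (edgeR adjusted p = 0.694), and no call among the 11 named genes changed.

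The Prtn3 comparison. The count of 31 genes was 175 without thinning, 169 at 5000 UMIs, 19 in cells with 0 S100a8 and S100a9 UMIs, 19 without cells rich in markers of other types (an alternative added after seeing the data) and 1 with DESeq2, which had 60 at an unadjusted p under 0.05. Without the replicate block edgeR called 0, with 137 at an unadjusted p under 0.05. It ranged from 5 to 30 when each library was left out. Of the called genes, 13 were called in the same direction without thinning and 4 in the opposite one. Reversed values without thinning were Dut 0.34, H2afz 0.021, Ifitm1 -0.20, Junb -0.089, Malat1 -0.048, Meg3 -0.58, Pcna 0.40, Procr -0.064, Stmn1 0.31, Tuba1b 0.25 and Tyms 0.52. Hbb-bs ranged from -2.38 to 0.24 when each library was left out and was 0.28 without cells rich in markers of other types, where Lyz2 was 0.21. The cause was not tested.

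Depth. Thinned to 2000 UMIs, shares of cells with a UMI were 63.6%, 47.1%, 55.7% and 53.5% for Prtn3. In LT2, ST1 and ST2 they were 0%, 1.30% and 1.71% for Mpo and 0%, 0.152% and 0.353% for Ctsg, and in ST1 and ST2 0.343% and 0.353% for Elane. LT1, with 22 cells, limits every statement on LT-HSC to 1 well-sampled mouse.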
